A study of Mus musculus with 8 samples.

Results

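The neuronal immediate early genes examined here are 10 of the 50686 genes in the count table of this series, namely *Fos*, *Fosb*, *Junb*, *Egr1*, *Egr2*, *Egr4*, *Arc*, *Npas4*, *Nr4a1* and *Ier2*. They were chosen by symbol as transcripts that neuronal activity induces, and their symbols were matched to Ensembl identifiers with the GENCODE annotation of GRCm38. All 10 were found and all 10 passed the filter on low counts, as did 16018 genes in all. The RNA was extracted from ventral hippocampi of C57B6/J males aged 8 weeks and housed in groups, which were injected in the morning and decapitated 3 h later. The injection was vehicle in 4 mice (numbers 1 to 4) and corticosterone at 3 mg/kg, the main glucocorticoid of rodents, in the other 4 (numbers 5 to 8), with 1 library per mouse. All mice therefore shared handling, injection and time of death, and no mouse without an injection and no other time point was analysed here. The comparison asks how these transcripts stood 3 h after a corticosterone injection against a vehicle injection.

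Immediate early genes are transcribed within minutes of synaptic activity without the need for new protein. Calcium and kinase signals reach transcription factors that already sit at their promoters, among them CREB at the cyclic AMP response element (CRE) and serum response factor at the CArG box, and the mRNAs formed are short-lived. In the hippocampus these genes are widely used as marks of recently active neurons after handling, novelty, learning or seizures. Most of them code for transcription factors, whereas *Arc* codes for a protein that acts at the synapse.

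Promoters are shown first, since activity acts on such genes through elements there. Their part in the values below was not tested. RefSeq promoter windows of GRCm38.p6 were at hand for 7 of the 10 genes (*Fos*, *Fosb*, *Junb*, *Egr2*, *Egr4*, *Npas4* and *Nr4a1*), and the 250 bases before the start site were searched on both strands. The core of the CRE, TGACG on one strand and CGTCA on the other, was found in 7 of 7 windows, against 17.8% of all 32851 promoter windows of that length. The whole palindromic CRE, in which TCA follows that core, was in 0 of 7 (1.55% of all windows), and the AP-1 site TGANTCA, to which Fos and Jun proteins bind, was also in 0 of 7 (6.75%). The CArG box, searched as CCWWWWWWGG with W for A or T, was found in 1 of 7, that of *Egr2* (1.47%). The palindromic glucocorticoid response element, AGAACA and TGTTCT with 3 bases between them, was in 0 of 7 (0.00913% of all windows). Sites that differ from a pattern in any base or lie further upstream were not counted. For *Nr4a1*, the window belongs to a start site 12577 bases from the start of its principal transcript in GENCODE, and for *Npas4* the distance was 345 bases. Of the 5 windows of *Egr2*, the one at the principal transcript was used. These matches describe the letters in the windows and say nothing of binding. The stretches that hold the matches are printed 5′ to 3′ on the strand of the gene, with the CRE cores and the CArG box in capitals.
*Fos* (chr12:85473746-85473843, plus strand): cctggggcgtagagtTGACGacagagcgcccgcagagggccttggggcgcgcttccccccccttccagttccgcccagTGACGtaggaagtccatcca
*Fosb* (chr7:19310086-19310120, minus strand): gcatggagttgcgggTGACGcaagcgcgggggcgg
*Junb* (chr8:84978835-84978869, minus strand): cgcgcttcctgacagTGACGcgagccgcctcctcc
*Egr2* (chr10:67537743-67537833, plus strand): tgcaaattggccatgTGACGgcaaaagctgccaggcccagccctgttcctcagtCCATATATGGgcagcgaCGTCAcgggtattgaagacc
*Egr4* (chr6:85513679-85513781, minus strand): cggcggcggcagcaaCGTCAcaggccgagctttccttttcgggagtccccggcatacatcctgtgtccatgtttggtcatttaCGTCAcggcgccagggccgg
*Npas4* (chr19:4990121-4990165, minus strand): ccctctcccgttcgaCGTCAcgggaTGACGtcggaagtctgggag
*Nr4a1* (chr15:101266598-101266825, plus strand): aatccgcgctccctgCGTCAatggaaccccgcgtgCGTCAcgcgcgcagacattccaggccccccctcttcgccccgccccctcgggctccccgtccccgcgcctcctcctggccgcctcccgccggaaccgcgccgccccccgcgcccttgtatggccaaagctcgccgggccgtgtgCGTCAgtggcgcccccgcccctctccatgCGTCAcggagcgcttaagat

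In *Npas4*, 2 CRE cores of opposite orientation lay within the same short stretch. In *Egr2*, the CArG box lay between 2 CRE cores. *Nr4a1* held the most CRE cores, 4, spread over the window.

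Totals on genes lay between 17492159 and 19931987 reads per library. Normalized counts below are read counts scaled with the TMM factors of edgeR to the mean library size, so they stay close to reads. *Fkbp5*, a known target of the glucocorticoid receptor, checked the treatment labels. It had 1957 ± 301 normalized counts after vehicle and 3309.6 ± 159 after corticosterone (SD, n = 4 each), and the groups did not overlap. The exact permutation test gave a two-sided p of 0.0286, which is the smallest possible with 4 against 4 mice. Corticosterone mouse 5 stood apart from its group in the variation over all genes tested. On the first principal component, which held 33.7% of the variance, corticosterone mouse 5 (score -19.2) lay on the side of vehicle mice 1 to 3 (-24.8 to -8.33) while corticosterone mice 6 to 8 had scores of 18.9 to 23.5 and vehicle mouse 4 lay between these groups of libraries (5.11). The libraries also differed in how counts moved with the GC content of the transcript. In the libraries of mice 1, 2, 3 and 5, counts rose by 0.0595 to 0.199 on the log2 scale for each 10 percentage points of GC content relative to the mean of the 8 libraries, whereas in the libraries of mice 4, 6, 7 and 8 the slope was between -0.183 and -0.084. This bears on the immediate early genes, whose transcripts had a GC content of 51.4% (*Egr2*) to 68.2% (*Egr4*) against a median of 49.7% over all genes tested.

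None of the 10 genes passed the threshold between the groups, an adjusted p value under 0.05 in the quasi-likelihood test of edgeR, in which p values were adjusted over all 16018 genes and 0.00624% of all genes tested passed, the single one being *Fkbp5*. Its call (log2 fold change 0.76, adjusted p = 0.0481) was lost with at least 10 counts in every sample (adjusted p = 0.053) and in 6 of 8 fits with 1 library left out (adjusted p = 0.142 to 0.331), in which the estimate was 0.69 to 0.77. The estimate was below 0 for 10 of 10 genes, against 49.3% of all genes tested, with a median log2 fold change of -0.25 against 0.0036 over all genes. This median depended on the libraries and on the fit. With each library left out it ran from -0.37 (without corticosterone mouse 7) to -0.11 (without vehicle mouse 3). It was -0.09 with the GC and length trend removed, 0.006 with 1 surrogate variable and 0.14 with ambiguous reads as a covariate. Members of one library share a mouse, so these 10 estimates are not independent. At an unadjusted p value under 0.05 there was 1 of 10, *Fosb*, against 9.03% of all genes. This count was 0 of 10 with DESeq2 (1481 of 27483 genes), with 1 surrogate variable (1010 of 16018) and with the GC and length trend removed (1557 of 16018). It was 2 of 10 with no filter (2445 of 27483 genes) and with ambiguous reads as a covariate (1877 of 16018). With each library left out it was 0 to 5. The highest count was that without corticosterone mouse 5, where 4696 of 16181 genes were under 0.05. In 0 of 10 genes were the groups free of overlap, against 3.66% of all genes, and exact permutation p values of single genes ran from 0.0857 (*Fosb*) to 0.743 (*Npas4*), two-sided. With DESeq2 and with limma-voom, 0 of 10 genes passed the adjusted threshold as well. The direction of several genes depended on the setting. The estimate was above 0 for 2 of 10 once each library's trend with GC content and length had been taken out. It was above 0 for 5 of 10 with 1 surrogate variable and for 7 of 10 with ambiguous reads as a covariate. The covariate is the percentage of reads that the counting could not assign to 1 gene. That percentage was 1.64% to 1.67% in vehicle mice 1 to 3 and 1.25% to 1.28% in corticosterone mice 6 to 8. Vehicle mouse 4 had 1.40% and corticosterone mouse 5 had 1.48%. The covariate thus largely follows the groups, and that fit can hardly separate it from treatment.

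**Figure D1:**
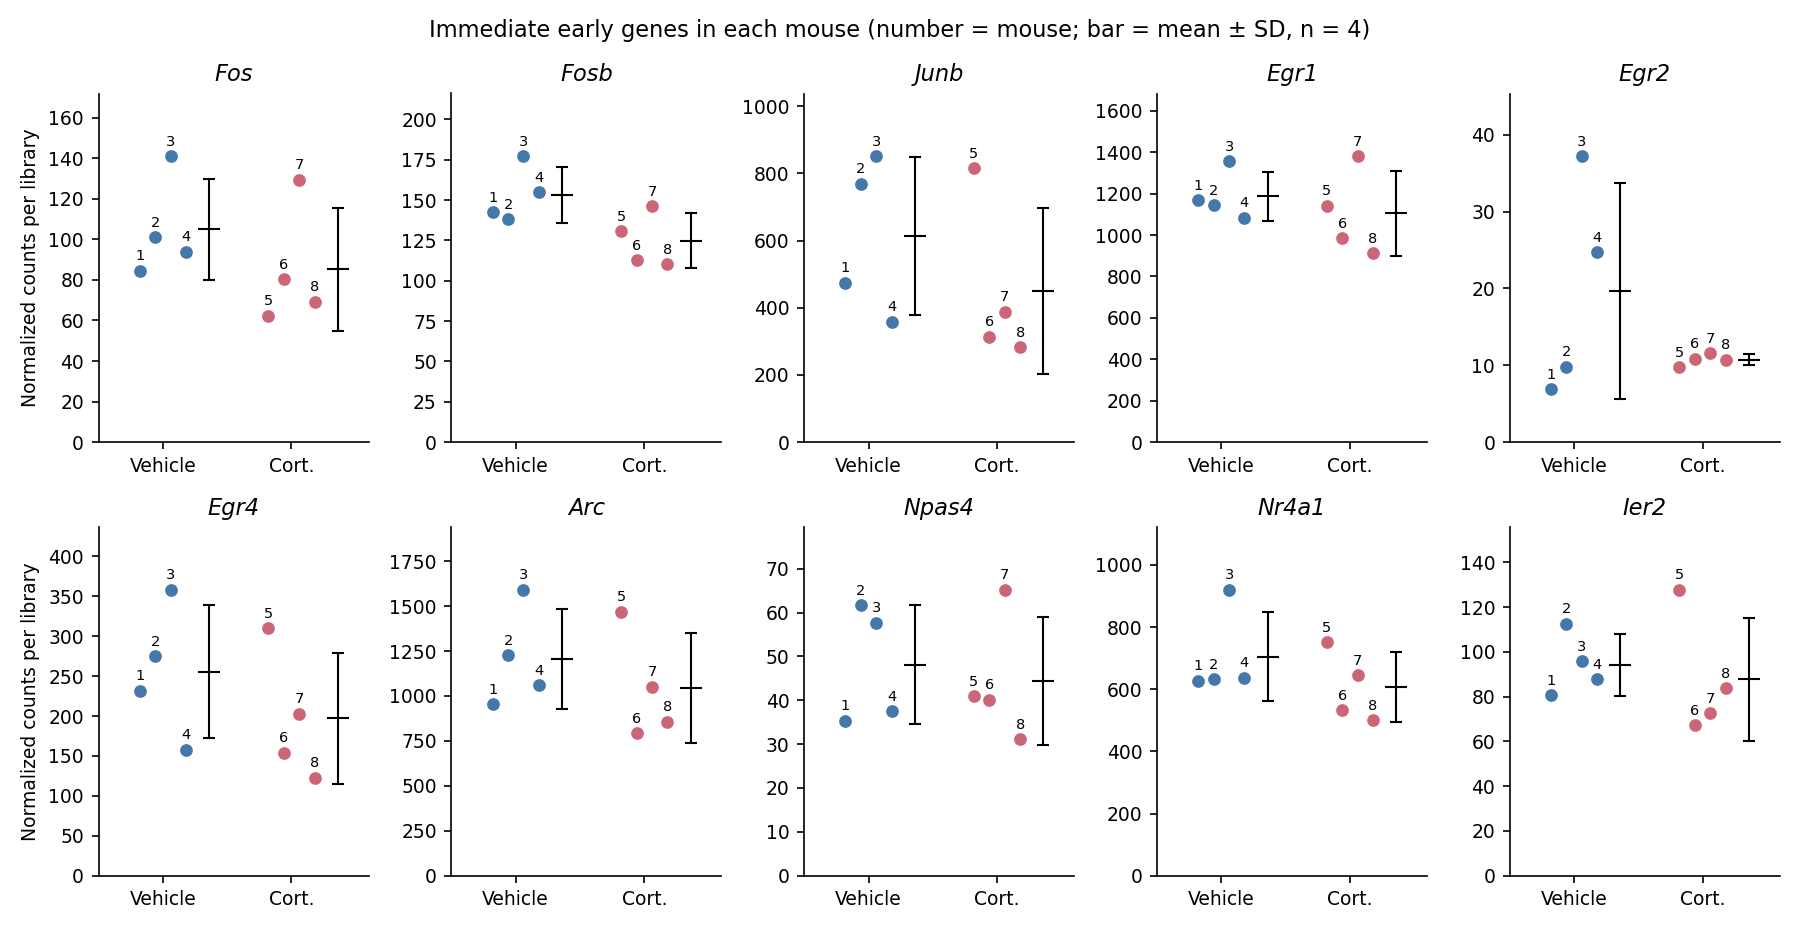
Normalized counts of each immediate early gene (y axis, from 0, scaled per gene) in the 4 vehicle mice (blue) and the 4 corticosterone mice (red). Each point is 1 mouse with its number, and black bars give the mean ± SD. The groups overlap in every panel, vehicle mouse 3 is the highest of its group in 8 of the 10 genes, and the highest corticosterone mouse is either 5 or 7.

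*Fos*, *Fosb* and *Junb* code for subunits of the AP-1 transcription factor, in which a Fos protein pairs with a Jun protein. *Fos* (ENSMUSG00000021250, chromosome 12 from 85473890 to 85477273) had 84.5, 101, 141 and 93.8 normalized counts in vehicle mice 1 to 4. It had 62.4, 80.3, 129 and 69.2 in corticosterone mice 5 to 8. Vehicle mouse 3 and corticosterone mouse 7 had the highest values, and corticosterone mice 5, 6 and 8 lay below all vehicle mice. The means were 105 ± 24.8 after vehicle and 85.3 ± 30.2 after corticosterone (SD, n = 4 each), giving a change of -0.30 (95% interval -0.80 to 0.196, standard error 0.23, adjusted p = 0.634) on the log2 scale. As a fold of the vehicle level, the interval runs from 0.573- to 1.15-fold (exact permutation p = 0.286, two-sided). The estimate was -0.13 without vehicle mouse 3 and -0.57 without corticosterone mouse 7, with no adjusted p under the threshold.

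*Fosb* (ENSMUSG00000003545, chromosome 7 from 19302696 to 19310051), whose protein also exists as the stable truncated form ΔFosB, had 142, 138, 177 and 155 normalized counts in vehicle mice 1 to 4. It had 131, 113, 146 and 110.1 in corticosterone mice 5 to 8. Among corticosterone mice, only mouse 7 exceeded the 2 lowest vehicle mice, and the other 3 lay below every vehicle mouse. The log2 fold change was -0.29 (95% interval -0.59 to -0.000668, standard error 0.14, adjusted p = 0.545), with an unadjusted p of 0.0496 (0.0593 with DESeq2, 0.153 with the GC and length trend removed). The exact permutation test gave p = 0.0857 (two-sided, 4 against 4 mice). *Fosb* kept its sign in all 18 other fits, from -0.38 to -0.20, and passed the threshold in 0 of them.

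*Junb* (ENSMUSG00000052837, chromosome 8 from 84974484 to 84978718, with 1 exon in its principal transcript) had 475, 769.9, 851 and 358 normalized counts in vehicle mice 1 to 4. It had 816, 315, 389 and 284 in corticosterone mice 5 to 8. Mice 2, 3 and 5 stood high, mice 4, 6, 7 and 8 low and mouse 1 between them, so high values occurred in either group. The estimate on the log2 scale was -0.44 (95% interval -1.14 to 0.256, standard error 0.32, adjusted p = 0.623), an interval of 0.453- to 1.19-fold of the vehicle level. Without corticosterone mouse 5, whose library stands apart as described, the estimate was -0.90 (adjusted p = 0.0326), in a fit in which 10.2% of all genes tested passed the threshold. It was 0.86 (adjusted p = 0.146) with ambiguous reads as a covariate and 0.16 (adjusted p = 0.9) with 1 surrogate variable. Without vehicle mouse 3 it was -0.25 (adjusted p = 0.908), as it was without the trend with GC content and length (adjusted p = 0.72). The transcript has a GC content of 62.6%, higher than 98.5% of genes tested, and its exons overlap those of *Prdx2* on the opposite strand. The part of GC content in this gene was not tested beyond the removal of the trend.

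*Egr1*, *Egr2* and *Egr4* code for zinc finger transcription factors of the early growth response family, which bind GC-rich sites. *Egr1* (ENSMUSG00000038418, chromosome 18 from 34859823 to 34864984) had 1168, 1145, 1357 and 1083 normalized counts in vehicle mice 1 to 4. It had 1141, 985, 1379.9 and 913 in corticosterone mice 5 to 8. The highest value of all 8 was that of corticosterone mouse 7 and the lowest that of corticosterone mouse 8, so the corticosterone group spanned the whole range. On the log2 scale, corticosterone against vehicle was -0.11 (95% interval -0.36 to 0.152, standard error 0.12, adjusted p = 0.736). This was the narrowest interval of the 10 genes, 0.778- to 1.11-fold of the vehicle level, and the estimate was reversed to 0.02 without the trend with GC content and length (adjusted p = 0.967). It was -0.23 without corticosterone mouse 7, -0.03 without corticosterone mouse 8 and -0.04 without vehicle mouse 3, with no adjusted p under the threshold.

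*Egr2* (ENSMUSG00000037868, chromosome 10 from 67535475 to 67542188) had few reads, between 7 and 38 per library. It had 6.87, 9.80, 37.2 and 24.7 normalized counts in vehicle mice 1 to 4. It had 9.75, 10.8, 11.6 and 10.7 in corticosterone mice 5 to 8. Vehicle mice 3 and 4 were above all other mice, vehicle mouse 1 was the lowest of all, and vehicle mouse 2 lay among the corticosterone mice, which were close together. The means were 19.6 ± 14.1 and 10.7 ± 0.746 (SD, n = 4 each). Their log2 fold change was -0.87 (95% interval -1.88 to 0.145, standard error 0.47, adjusted p = 0.55), the widest interval of the 10 genes, 0.272- to 1.11-fold of the vehicle level. Its size rested on mouse 3: without vehicle mouse 3 it was -0.36. On log2 values with a prior count of 2 the difference of the group means was smaller, -0.52 (exact permutation p = 0.4, two-sided).

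*Egr4* (ENSMUSG00000071341, chromosome 6 from 85511121 to 85513589) had 232, 275, 358 and 158 normalized counts in vehicle mice 1 to 4. It had 310.0, 154, 203 and 123 in corticosterone mice 5 to 8. The same mice as for *Junb*, 2, 3 and 5, were the highest, followed by vehicle mouse 1. Its estimate was -0.37 (95% interval -0.96 to 0.219, standard error 0.27, adjusted p = 0.624) on the log2 scale, an interval of 0.513- to 1.16-fold of the vehicle level. *Egr4* has the most GC-rich transcript of the 10, above 99.6% of genes tested, and its log2 fold change was -0.04 (adjusted p = 0.959) without the trend with GC content and length, 0.12 with 1 surrogate variable and 0.70 (adjusted p = 0.282) with ambiguous reads as a covariate. Of single libraries, corticosterone mouse 5 and vehicle mouse 3 moved it most, to -0.68 (adjusted p = 0.0691) and -0.17 (adjusted p = 0.92) when left out.

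**Figure D2:**
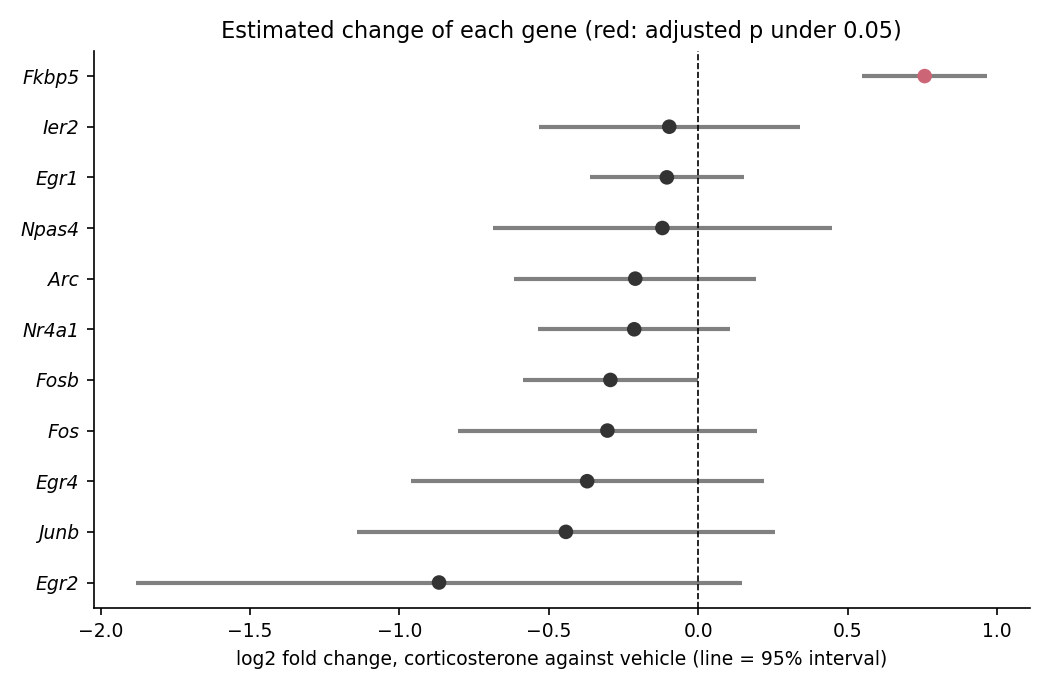
Log2 fold change of corticosterone against vehicle (x axis) for each immediate early gene and for *Fkbp5* as the check of treatment, from the quasi-likelihood fit of edgeR. Points are estimates and lines 95% intervals. All 10 immediate early genes lie left of 0 with an adjusted p value above 0.05, while *Fkbp5* (red, 0.76, adjusted p = 0.0481) lies right of it.

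*Arc* (ENSMUSG00000022602, chromosome 15 from 74669083 to 74672570) codes for a protein of the postsynapse that takes part in the removal of AMPA receptors from the membrane, and its mRNA is carried into dendrites. It had 954, 1227, 1590.5 and 1061 normalized counts in vehicle mice 1 to 4. It had 1469.9, 794, 1052 and 857 in corticosterone mice 5 to 8. The highest values were again those of vehicle mouse 3 and corticosterone mouse 5, and corticosterone mice 6 and 8 were below every vehicle mouse. The change on the log2 scale was -0.21 (95% interval -0.62 to 0.194, standard error 0.19, adjusted p = 0.672), or 0.653- to 1.14-fold of the vehicle level. It was -0.42 (adjusted p = 0.0725) without corticosterone mouse 5 and -0.05 without vehicle mouse 3. The sign was reversed with 1 surrogate variable (0.10) and with ambiguous reads as a covariate (0.32).

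*Npas4* (ENSMUSG00000045903, chromosome 19 from 4984355 to 4990316) codes for a transcription factor that answers calcium entry in neurons more selectively than the other genes do and acts on inhibitory synapses. It had 35.4, 61.7, 57.7 and 37.5 normalized counts in vehicle mice 1 to 4. It had 40.9, 40.1, 65.2 and 31.2 in corticosterone mice 5 to 8. Mice 2, 3 and 7 were high and the other 5 low, so both groups held high and low values. Its log2 fold change was -0.12 (95% interval -0.69 to 0.446, standard error 0.26, adjusted p = 0.871), or 0.622- to 1.36-fold of the vehicle level. The estimate changed sign without vehicle mouse 2 (0.0231), without corticosterone mouse 8 (0.0147), with 1 surrogate variable (0.0175) and with ambiguous reads as a covariate (0.13), and was -0.36 without corticosterone mouse 7. With 32 to 63 reads per library, changes within that interval were not resolved with 4 mice per group.

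*Nr4a1* (ENSMUSG00000023034, chromosome 15 from 101254269 to 101274795) codes for the orphan nuclear receptor Nur77. It had 628, 633, 919 and 637 normalized counts in vehicle mice 1 to 4. It had 751, 532, 644 and 501 in corticosterone mice 5 to 8. Vehicle mouse 3 stood far above the other 3 vehicle mice, which lay between 628 and 637. Corticosterone mice 6 and 8 lay below all vehicle mice, and mice 5 and 7 within the vehicle range. The log2 fold change was -0.21 (95% interval -0.54 to 0.107, standard error 0.15, adjusted p = 0.609), or 0.69- to 1.08-fold of the vehicle level, with -0.06 without vehicle mouse 3 and -0.33 (adjusted p = 0.114) without corticosterone mouse 5. It was 0.14 with ambiguous reads as a covariate.

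*Ier2* (ENSMUSG00000053560, chromosome 8 from 84661331 to 84662852, 1 exon) codes for a nuclear protein of the early response. It had 80.5, 113, 95.9 and 87.9 normalized counts in vehicle mice 1 to 4. It had 128, 67.3, 72.5 and 83.8 in corticosterone mice 5 to 8. Corticosterone mouse 5 was the highest of all and corticosterone mice 6 and 7 the lowest. The difference on the log2 scale was -0.10 (95% interval -0.53 to 0.339, standard error 0.20, adjusted p = 0.865), or 0.691- to 1.27-fold of the vehicle level, and it was reversed to 0.07 without the trend with GC content and length (adjusted p = 0.914), 0.17 with 1 surrogate variable and 0.40 with ambiguous reads as a covariate. It was -0.34 without corticosterone mouse 5 and 0.0095 without corticosterone mouse 6.

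Levels of different genes were compared as counts scaled to the library size (CPM) per kilobase of the union of their exons. After vehicle, *Arc* was the most abundant with 20.6 ± 4.76 CPM per kilobase (SD, n = 4), followed by *Junb* with 13.9 ± 5.32, *Egr1* with 13.8 ± 1.37 and *Nr4a1* with 10.5 ± 2.14. *Egr4* had 6.22 ± 2.03, *Ier2* 3.23 ± 0.473 and *Fos* 2.33 ± 0.551. The lowest were *Fosb* with 1.28 ± 0.146, *Npas4* with 0.607 ± 0.171 and *Egr2* with 0.302 ± 0.216. Most neighbours in this order overlapped between vehicle mice, as *Arc* (16.3 to 27.2) did with *Junb* (8.13 to 19.3), *Junb* with *Egr1* (12.6 to 15.8) and *Egr1* with *Nr4a1* (9.34 to 13.7). So did *Egr4* (3.84 to 8.70) with *Ier2* (2.76 to 3.86), *Ier2* with *Fos* (1.88 to 3.13) and *Npas4* (0.446 to 0.779) with *Egr2* (0.106 to 0.571). Gaps without overlap lay between *Nr4a1* and *Egr4*, between *Fos* and *Fosb* (1.16 to 1.48) and between *Fosb* and *Npas4*. Among the 15989 genes tested that have an annotated length, the vehicle level of *Arc* was above 84.2%, that of *Fos* above 34.5% and that of *Npas4* above 14.0%. The order of the means after corticosterone was *Arc* (17.8 ± 5.21), *Egr1* (12.9 ± 2.41), *Junb* (10.2 ± 5.61) and *Nr4a1* (9.03 ± 1.70), with the other 6 in the same order as after vehicle. The union of exons is 6.24 kb for *Fosb* and 3.51 kb for *Nr4a1*, longer than their longest transcripts. With the longest transcripts, their vehicle levels were 2.11 and 14.4, and that of *Nr4a1* was above that of *Egr1*. The gap between *Fos* and *Fosb* was then lost, as *Fosb* (1.91 to 2.44) overlapped with *Fos* (2.09 to 3.49).

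Most of the 10 genes varied more between mice of the same group than genes of like level did. The spread was measured as the SD of log2 CPM around the group means (8 mice, 6 degrees of freedom), whose median over all genes tested was 0.17. It was 0.71 for *Egr2*, 0.64 for *Junb*, 0.53 for *Egr4*, 0.41 for *Npas4* and 0.39 for *Fos*. Low counts add spread, so each gene was also ranked among the genes within 0.5 of its mean log2 level. There, *Junb* was above 99.8% of 2508 genes, *Arc* above 99.3% of 2448, *Egr4* above 99.2% of 2046 and *Nr4a1* above 94.9% of 2574. *Fos*, *Egr2* and *Egr1* were above 93.5%, 93.5% and 91.1%, *Npas4* and *Ier2* above 84.1% and 81.1%. The spread of *Ier2*, 0.32, was 0.19 without corticosterone mouse 5. *Fosb* was the exception, above 34.7%. Counting error alone gives an SD of 0.37 for *Egr2*, 0.21 for *Npas4*, 0.15 for *Fos*, 0.12 for *Fosb* and 0.0623 for *Junb*. These are descriptions without a test. With the GC and length trend removed, the spread of *Egr4* was 0.23 in place of 0.53, that of *Junb* 0.40, that of *Ier2* 0.19 and that of *Arc* 0.24, whereas *Fos* (0.40), *Npas4* (0.39) and *Egr2* (0.72) hardly moved.

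**Figure D3:**
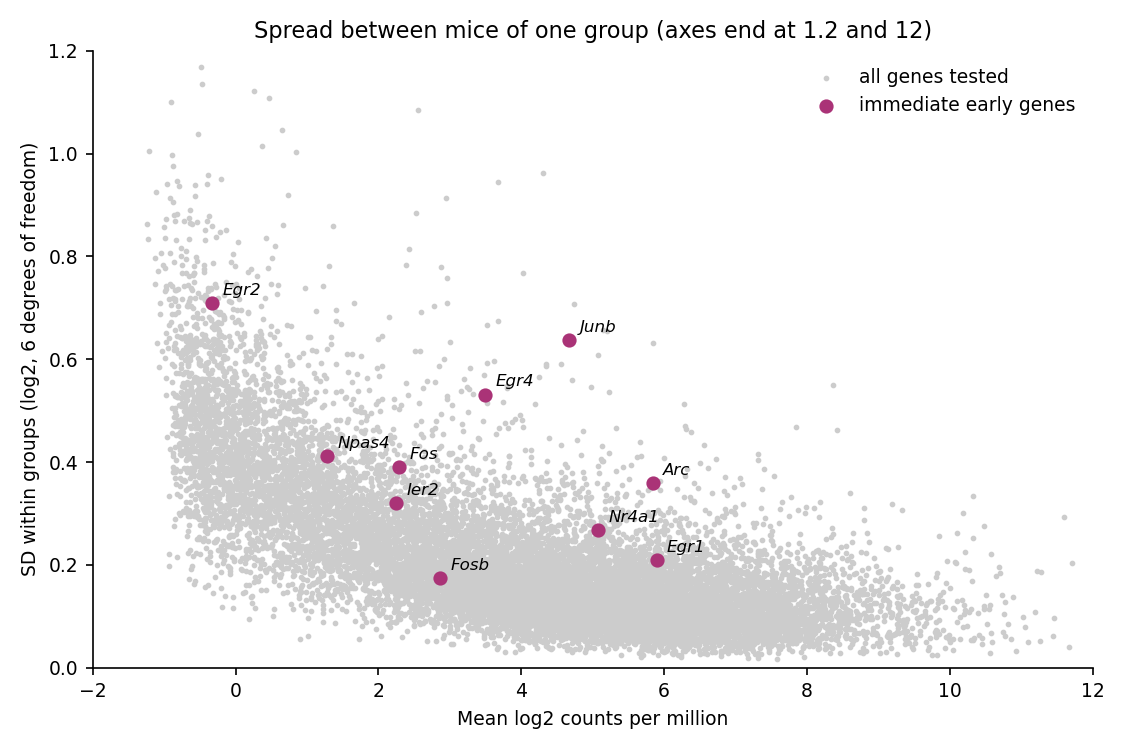
Spread between mice of one group (y axis, SD of log2 CPM around the group means) against the mean level (x axis, log2 CPM). Grey points are all genes tested and purple points the immediate early genes. *Junb*, *Egr4* and *Arc* lie at the upper edge of genes of their level, and *Fosb* lies within the cloud.

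Most of the genes moved together between mice. Vehicle mouse 3 was the highest of all 8 mice in 7 of the 10 genes and among the 3 highest in 10 of 10, with a median deviation of 0.52 on the log2 scale from the mean of the 8 mice. Corticosterone mouse 8 was the lowest of all in 6 of 10, with a median deviation of -0.36, and corticosterone mouse 6 was below the mean of the 8 in 10 of 10, with a median deviation of -0.28. Over all genes tested, the median deviation of a library was at most 0.0069. The normalization brings this median close to 0 in every library, so it does not measure how unusual the deviations above are. In the corticosterone group, the highest mouse was 5 for *Junb*, *Egr4*, *Arc*, *Nr4a1* and *Ier2* and 7 for *Fos*, *Fosb*, *Egr1*, *Egr2* and *Npas4*. The first 5 of these transcripts have a GC content of 57.0% to 68.2% and the other 5 one of 51.4% to 57.3%. Without the GC trend, vehicle mouse 3 was still the highest of all in 7 of 10 and corticosterone mouse 8 the lowest in 5 of 10, whereas mouse 5 was the highest of its group in 3 and mouse 7 in 7. The median deviations were then smaller, 0.32 for vehicle mouse 3, -0.23 for corticosterone mouse 8 and -0.16 for corticosterone mouse 6.

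Over the 45 pairs of these genes, the median Pearson's r of deviations from the group means was 0.55 (8 libraries), and 43 pairs were positive. Over all pairs of genes tested, the median was 0. Pairs share library, depth and GC trend, and r is given as a description. The highest value was that of *Junb* and *Egr4* (0.96), and *Arc* went with *Nr4a1* (0.92) and *Junb* (0.90). *Fos* went with *Npas4* (0.80), *Egr1* (0.75) and *Fosb* (0.71), but hardly with *Junb* (0.08) or *Arc* (0.23). With the trend removed, the median was 0.51, with 38 of 45 pairs positive. *Fos* and *Egr1* then had 0.89, *Fos* and *Npas4* 0.84, *Arc* and *Nr4a1* 0.84, and *Junb* and *Egr4* 0.66. *Ier2* depended most on the trend. As counted, it went with *Junb* (0.79), *Arc* (0.76) and *Egr4* (0.62) but not with *Fos* (-0.36, the lowest of the 45 pairs), and 2 of its 9 pairs were negative. With the trend removed, 6 of the 9 were negative, down to -0.58 with *Egr1*.

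**Figure D4:**
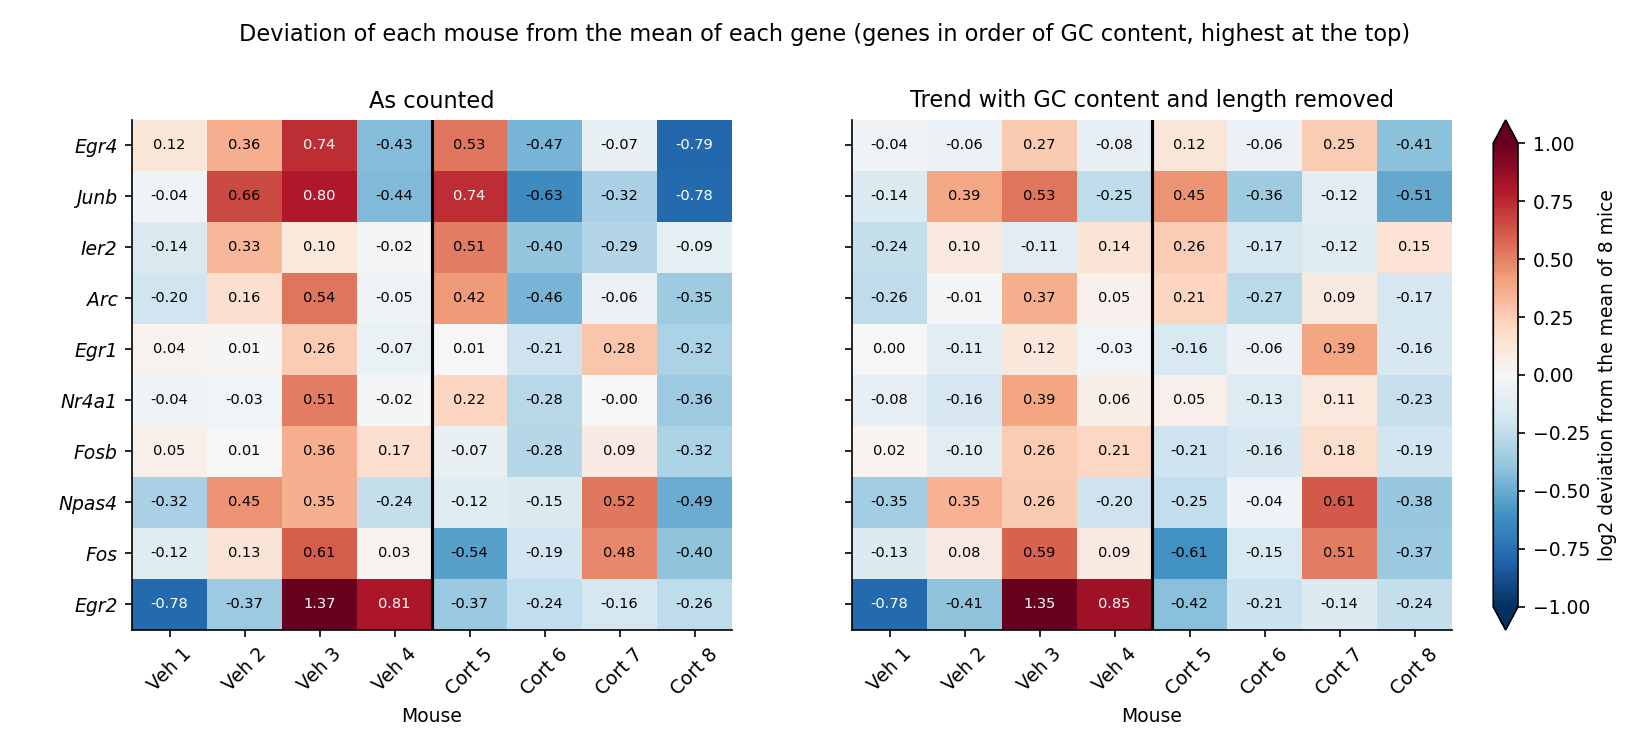
Deviation of each mouse (columns, vehicle 1 to 4 and corticosterone 5 to 8) from the mean of the 8 mice on the log2 scale, for each immediate early gene (rows, in order of transcript GC content), as counted (left) and without the trend with GC content and length (right). Red is above and blue below the mean, and the colour scale ends at 1 in either direction. The column of vehicle mouse 3 is red throughout on the left, the columns of corticosterone mice 6 and 8 are blue, and the colours of mouse 5 fade in the GC-rich genes at the top when the trend is removed.

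The rest of the activity response was described with 4 further lists. Of 19 other immediate early transcription factors, 17 were tested (*Fosl1* and *Atf3* had too few reads). None passed the threshold, 8 estimates were above and 9 below 0, and the median log2 fold change was -0.04. The smallest p values were those of *Egr3*, of the same family as *Egr1*, with 771 ± 199 and 548 ± 154 normalized counts after vehicle and corticosterone and a log2 fold change of -0.49 (adjusted p = 0.529, standard error 0.19), and *Nr4a3*, a relative of *Nr4a1*, with 1410.0 ± 251 and 1168 ± 50.6 normalized counts and -0.27 (adjusted p = 0.532, standard error 0.11). For *Egr3*, vehicle mouse 3 (1049.6) and corticosterone mouse 5 (776) were the highest of their groups. The counts of *Nr4a3* were close together in the corticosterone mice, from 1114 to 1212, and between 1059 and 1646 in the vehicle mice. Both groups overlapped in either gene. With the trend removed, the 2 estimates were -0.48 and -0.31.

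Among 25 other immediate early effectors (phosphatases, kinases, scaffold and RNA binding proteins), 0 passed the threshold, 16 estimates were above and 9 below 0, and the median was 0.04. The smallest p values belonged to *Tiparp*, an ADP-ribosyltransferase, with 386 ± 88.3 and 559 ± 149 normalized counts and a log2 fold change of 0.53 (adjusted p = 0.499, standard error 0.19), and *Zfp36*, which codes for a protein that destabilizes AU-rich mRNAs, with 87.8 ± 34.9 and 136 ± 22.1 normalized counts and 0.63 (adjusted p = 0.507, standard error 0.24). Both had a positive estimate, unlike the 10 genes, but vehicle mouse 1 (517 for *Tiparp*, 129 for *Zfp36*) overlapped the corticosterone mice. *Tiparp* passed the threshold without corticosterone mouse 5 (0.68, adjusted p = 0.0188), the fit in which 10.2% of all genes passed. Some members of this list, such as *Sgk1*, *Per1* and *Dusp1*, are also known glucocorticoid targets.

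Of 9 delayed response genes, 0 passed, 3 estimates were above and 6 below 0, and the median was -0.07. *Inhba*, which codes for a subunit of activin, was the single gene of the 4 lists without overlap between the groups (exact permutation p = 0.0286, two-sided, 4 against 4 mice). That is 1 of the 70 genes tested in these lists, or 1.43%, below the 3.66% of all genes. *Inhba* had 24.6, 25.5, 37.2 and 30.6 normalized counts in vehicle mice 1 to 4 and 20.5, 11.9, 20.0 and 24.4 in corticosterone mice 5 to 8, a log2 fold change of -0.61 (adjusted p = 0.545, standard error 0.27). *Pcsk1*, a prohormone convertase, had 277 ± 44.5 and 328 ± 18.8 normalized counts and 0.24 (adjusted p = 0.545, standard error 0.12). Of 19 upstream regulators (CREB, serum response factor, MEF2 factors, their partners and kinases), 0 passed, 12 estimates were above and 7 below 0, and the median was 0.01. *Mef2d*, a transcription factor of activity-driven genes, had 5193 ± 442 and 4458 ± 469 normalized counts and -0.22 (adjusted p = 0.531, standard error 0.09), and *Crtc1*, a coactivator of CREB, had 6286 ± 816 and 5182 ± 904 normalized counts and -0.28 (adjusted p = 0.545, standard error 0.12). Neither passed the threshold, and values of mouse 5 lay within the vehicle range for both.

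**Figure D5:**
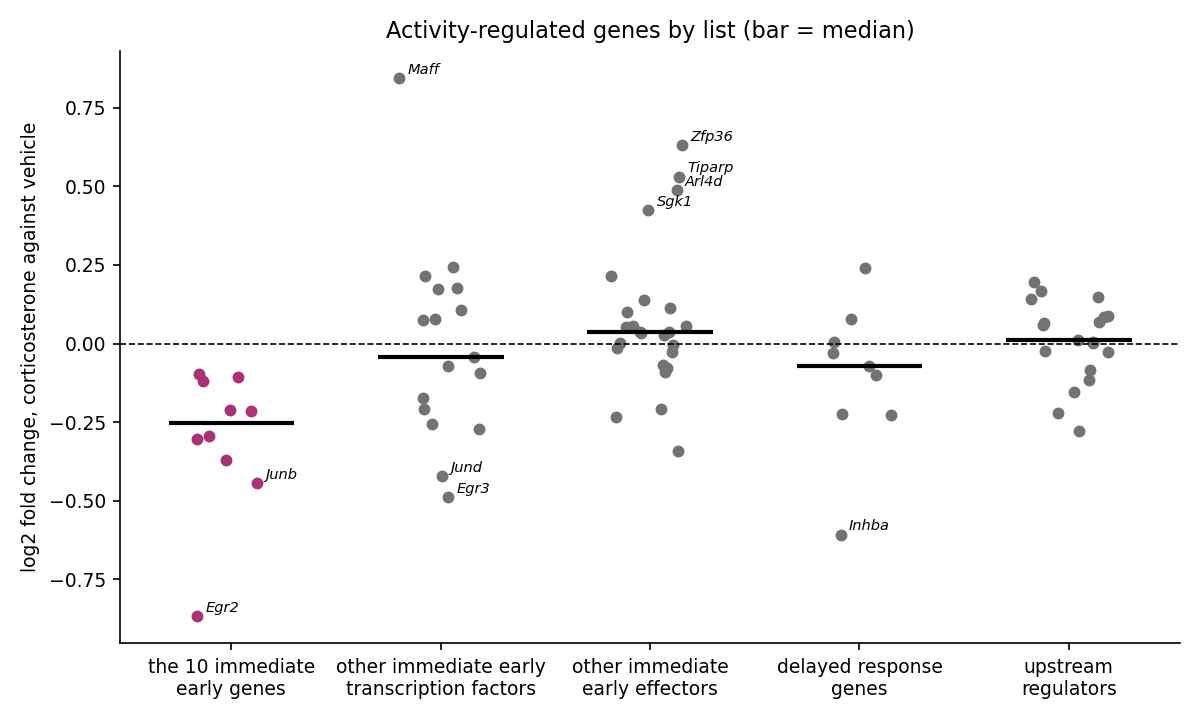
Log2 fold change of corticosterone against vehicle (y axis) for every gene tested of the 10 immediate early genes (purple) and of 4 further lists of the activity response (grey). Each point is 1 gene, bars are medians, and genes beyond 0.4 in either direction are named. The median of the 10 genes is -0.25 and those of the other lists lie between -0.07 and 0.04. With the GC and length trend removed (not drawn), they were -0.09 and -0.09 to 0.04.

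In bulk tissue, fewer cells of a type and less RNA per cell cannot be told apart. All markers of neurons, dentate granule cells, CA1 and CA3 had reads. The summed normalized counts of 5 neuronal markers were 112817 to 127085 after vehicle and 114697 to 121474 after corticosterone, and those of 4 dentate granule cell markers 5763 to 6416 after vehicle and 5153 to 6700.0 after corticosterone. The 2 CA1 markers (*Wfs1* and *Fibcd1*) summed to 5011 to 7444 after vehicle and 5339 to 7811 after corticosterone. Their sums were highest in mice 5 and 3 and lowest in mouse 1. The groups did not overlap in the sums of 5 microglial markers (4391 to 4621 after vehicle and 3097 to 4222 after corticosterone) and 4 endothelial markers (1638 to 1784 after vehicle and 1393 to 1524 after corticosterone). Gene by gene, 2 of the 5 microglial, 0 of the 4 endothelial, 1 of the 5 astrocyte and 1 of the 4 dentate granule cell markers were free of overlap, and none of the other marker lists, against 3.66% of all genes. The sums overlapped for 5 astrocyte markers (25745 to 28262 after vehicle and 24975 to 26966 after corticosterone), 4 oligodendrocyte markers (53242 to 93071 after vehicle and 52297 to 64048 after corticosterone), 3 CA3 markers (849 to 1352 after vehicle and 895 to 1309 after corticosterone), 5 choroid plexus markers (407 to 1294 after vehicle and 609 to 1344 after corticosterone) and 4 haemoglobin genes of erythrocytes (1563 to 4979.8 after vehicle and 1537 to 1988 after corticosterone), the last of which were highest in vehicle mouse 2. Some immediate early genes, such as *Junb* and *Ier2*, are also transcribed in glia and vessels. The part of tissue composition in the values above was not tested.

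Over the 8 libraries, the genes outside the lists whose pattern was most like the mean of the 10 (Pearson's r with the mean z score, among 15869 genes) were *Gm13493* (0.98), *Igfbp4* (0.97), *Cacna1h* (0.97), *Tnfrsf25* (0.96) and *Arid5a* (0.96). *Igfbp4*, which codes for a binding protein of insulin-like growth factors, lay between 1221 and 1455 normalized counts after vehicle and 1059 and 1272 after corticosterone. *Cacna1h*, a T-type calcium channel, lay between 1932 and 2416 and between 1574 and 2111. *Gm13493* had at most 24.5 normalized counts. The transcripts of *Igfbp4*, *Cacna1h*, *Tnfrsf25* and *Arid5a* had a GC content of 55.1% to 60.0%, that of *Gm13493* 49.7%. The median over all genes tested was 49.7%. These r values were computed as counted, without removal of the GC and length trend, and its part in them was not tested. In all, 84 genes had an r over 0.9, and none of the 5 named passed the threshold between the groups (adjusted p = 0.545 to 0.641, edgeR).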

How the data were processed

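RNA-seq libraries of 8 ventral hippocampi (4 vehicle, 4 corticosterone) were analysed from the deposited table of raw counts, whole numbers without normalization. The authors made stranded libraries, aligned paired reads to mm10 (GSnap), obtained gene counts from HTSeq-count and merged them into 1 table. The annotation release and the strand setting of the counting are not given in the sources used here, and with strand unknown, genes that overlap on opposite strands (*Junb* and *Prdx2*) are uncertain. Groups were taken from the sample labels, and 0 columns were left out. Rows that name no gene (13.7% to 15.4% of reads) were left out of library sizes.

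Symbols, positions and lengths came from GENCODE M21 (GRCm38), which holds 50462 of the 50686 identifiers. Promoter sequences were those of RefSeq for GRCm38.p6. TMM normalization, the filterByExpr filter and the quasi-likelihood test were those of edgeR 4.0.16 under R 4.3.3, with Benjamini-Hochberg adjustment over all genes tested and a threshold of 0.05. Log2 values used a prior count of 2. Standard errors are those implied by the F statistic. Single genes were compared by exact permutation over the 70 assignments of 4 against 4 mice. Alternatives were DESeq2 1.42.0 (the tool of the study), its size factors, upper-quartile normalization, limma-voom (limma 3.58.1), no filter, a filter of at least 10 counts in every sample, robust dispersion, 1 surrogate variable (sva 3.50.0) and each library left out. DESeq2 was run without the filterByExpr filter. A fit without each library's trend with GC content and length (5 spline degrees of freedom) and one with ambiguous reads as a covariate were chosen after seeing the data.

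The 10 genes and the further lists were chosen with earlier results of these data known. The genes named besides the 10 are *Fkbp5*, in each further list the 2 with the smallest p values and any past the threshold, and the 5 outside the lists most like the mean pattern of the 10. Others are named only to show a list's content or a setting. Each library is 1 mouse, and p values measure the spread between these mice.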

Additional observations from a re-analysis of the deposited data

Results flagged for a closer look

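Of 28 sets of 4 values, formed from the 10 genes and 4 library measures per group, 5 held a single value distant from its group. About 1.4 would be met by chance if the sets were independent. They share mice and linked library measures, so this figure is no test. Of the 10 genes, this concerned *Nr4a1* in vehicle mouse 3, with 919 normalized counts against 628 to 637 in the other vehicle mice. Vehicle mouse 4 had 1.40% of ambiguous reads against 1.64% to 1.67%. Corticosterone mouse 5 had 1.48% of ambiguous reads against 1.25% to 1.28%, a GC content slope of 0.199 against -0.183 to -0.130, and a score on the first principal component of -19.2 against 18.9 to 23.5.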

How the results depend on the processing

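No paired analysis was possible because no replicate number occurs in both groups. Over all genes, 1 passed the threshold. The count was 63 with DESeq2, which was run without the filter on low counts, and 79 with edgeR and no filter. It was 0 with at least 10 counts in every sample (edgeR, 1330 at an unadjusted p under 0.05). It was 2 with 1 surrogate variable, 21 without the trend with GC content and length, and 38 with ambiguous reads as a covariate. With each library left out it was 0 to 1651 (760 to 4696 at an unadjusted p under 0.05), the highest without corticosterone mouse 5. The number of the 10 genes past the threshold was 0 in the fits with all libraries and 0 to 1 with each library left out, the 1 being *Junb* without corticosterone mouse 5. The number with an estimate above 0 was 0. It was 5 with 1 surrogate variable, 2 without the trend, 7 with the covariate, and 0 to 2 with each library left out.

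With 1 surrogate variable, 5 estimates changed sign (*Junb* 0.16, *Egr4* 0.12, *Arc* 0.10, *Npas4* 0.0175, *Ier2* 0.17). So did 2 without the trend (*Egr1* 0.0222, *Ier2* 0.0715), and 7 with the covariate (*Junb* 0.86, *Egr1* 0.0381, *Egr4* 0.70, *Arc* 0.32, *Npas4* 0.13, *Nr4a1* 0.14, *Ier2* 0.40). With each library left out, *Npas4* ran from -0.36 to 0.0231 and *Ier2* from -0.34 to 0.0095, with a change of sign in 4 of 80 fits. *Fos*, *Fosb* and *Egr2* kept their sign in every fit. *Egr2* was not tested with at least 10 counts in every sample. The cause of these changes was not tested, and the covariate largely follows the groups.

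Among the other immediate early transcription factors, the number past the threshold was 0 to 3 with each library left out (*Egr3*, *Jun* and *Jund* without corticosterone mouse 5) and 1 with the covariate (*Jund*). It was 0 to 2 among the effectors (*Arl4d* and *Sgk1* without vehicle mouse 1, where 19 of all genes, 0.117%, passed), 0 to 1 among delayed response genes (*Vgf* without corticosterone mouse 5), and among upstream regulators 0 to 3 (*Creb1*, *Crtc1* and *Mef2d* without corticosterone mouse 5) and 1 with the covariate (*Mef2c*). In the fit without corticosterone mouse 5, 10.2% of all genes passed, against 3 of 17 transcription factors, 1 of 25 effectors, 1 of 9 delayed response genes and 3 of 19 upstream regulators. Few reads limit *Egr2* and *Npas4* most.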

Other observations

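Outside the rule for named genes, *Maff*, which codes for a small Maf transcription factor, had the highest estimate of the 4 further lists, 0.85 (adjusted p = 0.545, standard error 0.41) on the log2 scale from edgeR, and was picked out after its values were seen. It had 30.4, 12.7, 14.7 and 5.92 normalized counts in vehicle mice 1 to 4 and 21.4, 38.0, 37.8 and 18.5 in corticosterone mice 5 to 8. Vehicle mouse 1 lay within the range of the corticosterone mice. *Arl4d*, a small GTPase of the effectors and also picked out afterwards, had 418, 164, 153 and 111 normalized counts in vehicle mice 1 to 4 and 287, 277, 363 and 261 in corticosterone mice 5 to 8. Vehicle mouse 1 was the highest of all 8, and the other 3 vehicle mice were below every corticosterone mouse.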
